A study of Homo sapiens with 4 samples.

Results

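Ribosome biogenesis in the nucleolus was followed here through 45 genes, measured by RNA sequencing in 4 libraries of MOLM-13, an established line of human acute myeloid leukaemia (AML) with a KMT2A-MLLT3 fusion. The genes were taken from a list of nucleolar and MYC-driven names by exact match to the gene symbol. The list was chosen with earlier results of these data known. All 45 were found among the 27800 symbols of the table and among the 12603 that were tested. RRP-named genes were kept off the list because 1 library nearly lacks them. The 2 groups were cells transduced with lentivirus carrying CRISPR-Cas9 and a guide against KAT6A, a histone acetyltransferase also called MOZ (sgKAT6A, 2 libraries), and cells transduced with the CRISPR-Cas9 vector labelled EV (2 libraries). Both groups were grown in RPMI medium with serum and antibiotics and both received Cas9 by lentivirus. The guide's sequence, the content of EV, the time of harvest, and any selection or cloning of the cells are not stated in the labels. The series asks what targeting KAT6A, which it holds to promote the block in differentiation of AML, does to gene expression in these cells.

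A ribosome begins as a precursor RNA that RNA polymerase I transcribes in the nucleolus. Small nucleolar ribonucleoproteins (snoRNPs) modify the precursor, a large assembly called the small subunit processome cuts out the 40S part, and a separate set of factors matures the 60S part. The transcription factor MYC is known to bind E-box sequences near the starts of many genes of this pathway, and high nucleolar output is a known trait of fast-growing leukaemia cells.

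Levels are given in TPM, a length-corrected share of a library with a total of 1000000, which retains no read depth, so no counting interval could be given. Bulk values cannot tell fewer cells of a type from less RNA per cell. Nothing in the labels ties replicates to separate cultures, so the spread behind each p-value is that among these 4 libraries and may be technical. Each library had 12082 to 12630 genes at 1 TPM or more. All 8 myeloid markers chosen (PTPRC, CD33, MPO, SPI1, CEBPA, FLT3, CSF3R and LYZ) were above 1 TPM in every library. Of the markers of other lineages, B cell genes were at or under 1.29 TPM (MS4A1 at 0 throughout), the highest T cell gene was CD3D at 5.65 to 11.5 TPM, and KRT18 reached 7.12 TPM. The erythroid gene HBA1 was at 67.3 to 201 TPM and HBB at 38.6 to 192 TPM, both highest in EV replicate 2. KAT6A itself, the targeted gene, was at 16.2 and 16.7 TPM in EV against 12.2 and 10.8 TPM in sgKAT6A (unadjusted p = 0.0204, adjusted p = 0.784 by limma). Both sgKAT6A values were under both EV values, as in 23.2% of all genes tested. The RNA level is no measure of how far the gene or its protein was disrupted.

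Promoter sequences are shown first, because the MYC-binding E-box is what many of the 45 genes share outside the expression table. The motif searched was CACGTG, which reads the same on both strands, in RefSeq windows of 300 bases on GRCh38.p14 that run from 250 bases before to 50 bases after each annotated start. Windows were found for 38 of the 45 genes, and not for NOP58, NOLC1, TCOF1, UTP23, BOP1, DDX18 and PUS1. The motif was present for 18 of the 38 genes (47.4%), against 8.77% of 27305 genes with a window and 13.1% of the 9044 tested genes with one. Within 50 bases of a start it was present for 16 of the 38 genes (42.1%), against 5.48% of tested genes. The list was drawn in part from MYC-driven names, so a share above that of all genes was partly fixed by the choice. These shares are description and not a test. The letters describe sequence and are no measure of binding in these cells. The longest stretch shown is from UTP20, which encodes a component of the small subunit processome, on the plus strand at chr12:101279955-101280104 (GRCh38.p14), the 150 bases upstream of its start, with the E-box in capitals 10 bases before the start:
UTP20: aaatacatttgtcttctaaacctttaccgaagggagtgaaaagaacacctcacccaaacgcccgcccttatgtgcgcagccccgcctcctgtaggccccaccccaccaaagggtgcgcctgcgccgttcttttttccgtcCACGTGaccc

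Shorter windows of up to 30 bases around the E-box are given for 1 or 2 genes of each role, so that the flanks can be compared, all 5′ to 3′ on the gene's strand with the motif in capitals. FBL lies at chr19:39846356-39846385 (minus strand), GNL3 at chr3:52686026-52686055 (plus), DDX21 at chr10:68956604-68956633 (plus) and MYBBP1A at chr17:4555340-4555369 (minus). UTP4 lies at chr16:69132621-69132650 (plus), BYSL at chr6:41921515-41921544 (plus), PES1 at chr22:30591880-30591909 (minus) and NOP2 at chr12:6568242-6568268 (minus). The 2 windows of MYC-driven genes with other roles are IPO4 at chr14:24188828-24188857 (minus) and SRM at chr1:11060200-11060229 (minus).
FBL: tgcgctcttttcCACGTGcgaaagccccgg
GNL3: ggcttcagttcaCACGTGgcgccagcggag
DDX21: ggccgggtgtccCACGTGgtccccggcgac
MYBBP1A: ggggccggagcaCACGTGtttcgtgtttcg
UTP4: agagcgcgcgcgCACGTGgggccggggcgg
BYSL: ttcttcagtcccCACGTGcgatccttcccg
PES1: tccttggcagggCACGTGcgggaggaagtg
NOP2: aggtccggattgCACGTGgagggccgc
IPO4: tgtcagaacctcCACGTGctgtccctcccc
SRM: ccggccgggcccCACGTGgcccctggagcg

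In 6 of these 10 windows the motif begins after the start, at base 7 of the transcript for FBL and GNL3, 14 for PES1, 28 for MYBBP1A, 29 for BYSL and 36 for NOP2. In the others it lies upstream, 16 bases before the start for UTP4, 29 for IPO4, 31 for DDX21 and 199 for SRM. By role, 8 of 13 small subunit genes with a window held it, 3 of 10 genes of 60S maturation, 2 of 4 of the polymerase I group, 3 of 4 MYC-driven genes with other roles, 1 of 4 chaperone and GTPase genes and 1 of 3 snoRNP genes. Among the 4 lists of other ribosome biogenesis genes described further on, 22 of 81 genes with a window (27.2%) held it. Genes on which MYC is known to act outside the nucleolus, also described below, had a higher share than the members, 55.6% (10 of 18) against 47.4%. Within 50 bases of a start their share was lower, 22.2% (4 of 18) against 42.1%. The MYC network had 3 of 12 genes (25%) and the RRP-named genes 1 of 6 (16.7%).

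All 45 genes had the same extremes. Each was at its highest level in EV replicate 1 and at its lowest in sgKAT6A replicate 2, an order seen in 21.3% of the 12603 genes tested. The 45 were chosen with earlier results of these data known. Shares of all genes are therefore set beside them as description and not as a test. The sum of the 45 genes was 5425 and 4397 TPM in EV replicates 1 and 2 and 4258 and 2902 TPM in sgKAT6A replicates 1 and 2. EV replicate 2 and sgKAT6A replicate 1 were close to each other, with 22 genes higher and 23 lower in sgKAT6A replicate 1. The median gene was at 79.2% of its EV replicate 1 level in EV replicate 2, at 78.8% in sgKAT6A replicate 1 and at 48.0% in sgKAT6A replicate 2.

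**Figure D1:**
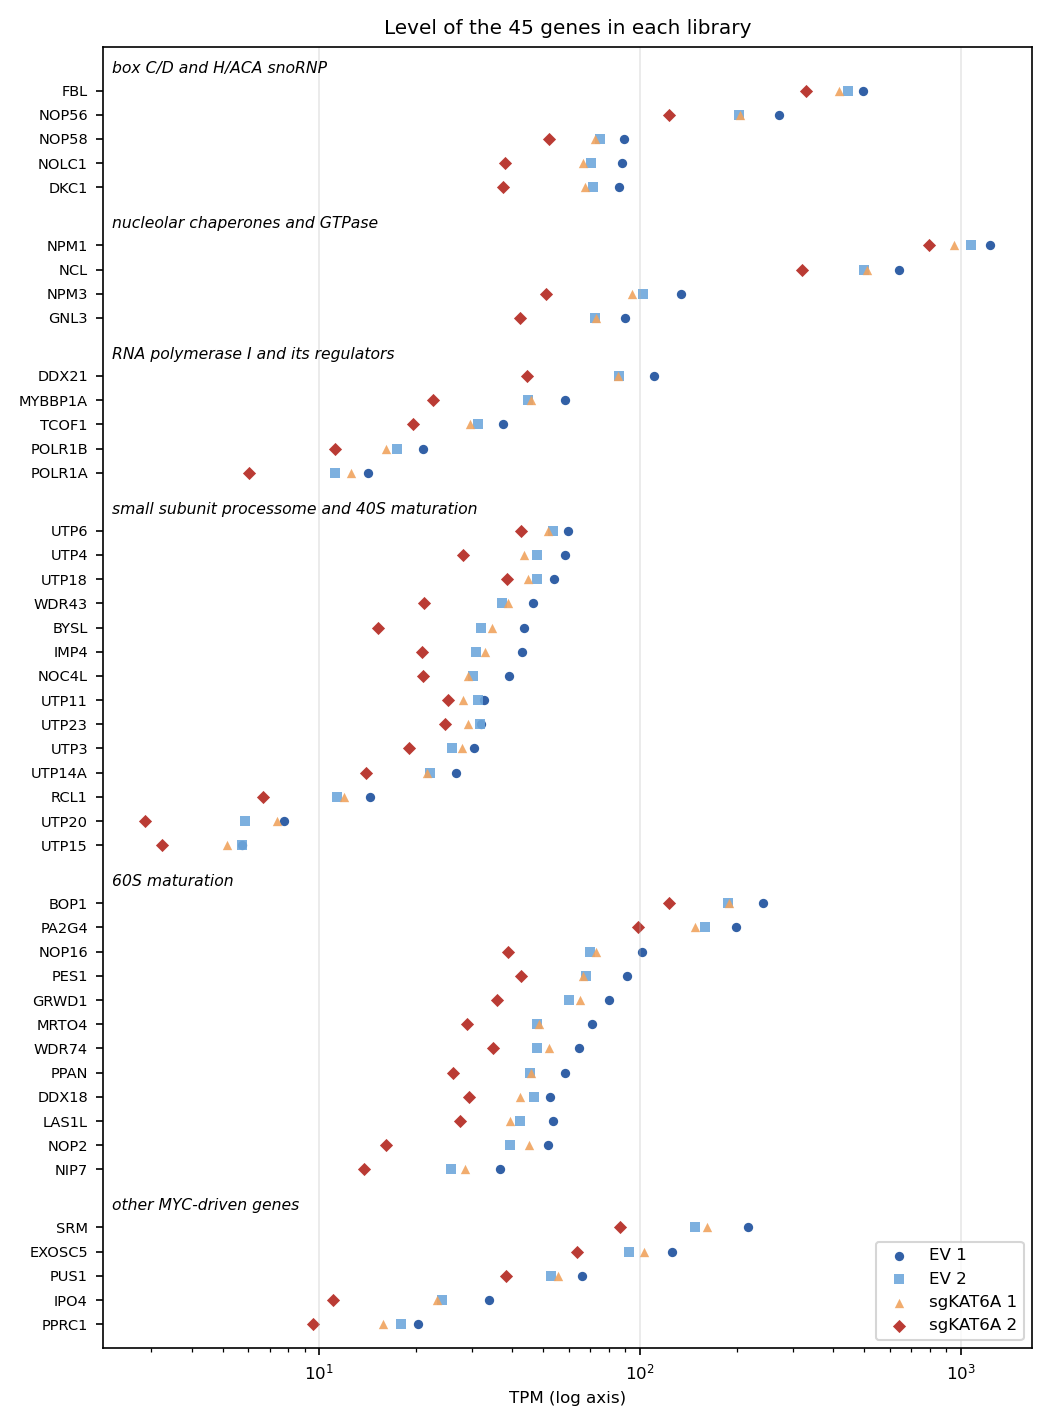
Level of each of the 45 genes in TPM (horizontal log axis) in the 4 libraries, grouped by role; each symbol is 1 library. In every row EV replicate 1 is the rightmost symbol (in UTP15 and UTP23 almost level with EV replicate 2) and sgKAT6A replicate 2 the leftmost. EV replicate 2 and sgKAT6A replicate 1 lie near each other in most rows. They are furthest apart in UTP20, where sgKAT6A replicate 1 is at 126% of EV replicate 2.

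The group difference, sgKAT6A minus EV on the log2(TPM + 1) scale, was below 0 for all 45 genes, against 52.6% of all genes tested. It ran from -0.79 for IPO4 to -0.23 for UTP23, with a median of -0.49 against -0.02 over all genes tested. As a ratio of mean TPM, the median gene was at 0.718 of EV. In 23 genes the groups did not overlap, with both sgKAT6A values under both EV values, and in 0 genes the reverse held, against 23.2% and 14.4% of all genes tested. No gene passed the test. With limma, 0 of the 45 genes and 0% of all genes tested had an adjusted p under 0.05, and 0 of the 45 had an unadjusted p under 0.05 against 3.64% of all genes tested in either direction and 1.98% in the lower direction. Adjusted p-values of the 45 genes by limma ran from 0.784 to 0.796. Standard errors were between 0.12 and 0.54, with a median of 0.29.

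The spread within the groups was of the size of the group difference. The median log2 difference of the 45 genes was -0.32 for EV replicate 2 minus EV replicate 1 and -0.67 for sgKAT6A replicate 2 minus sgKAT6A replicate 1. The gap between the sgKAT6A libraries was larger than the group difference in 39 of the 45 genes, and the gap between the EV libraries in 2. Without sgKAT6A replicate 2 the median group difference was -0.17, with UTP20 at 0.11 and NOP2 at 0.00 on the log2 scale and the other 43 below 0. Without sgKAT6A replicate 1 it was -0.85, and 33 of the 45 genes then had an unadjusted p under 0.05 by limma, against 10.03% of all genes tested in that fit (smallest adjusted p of the 45 = 0.469). With quantile normalization the count of genes without overlap was 12, against 19.4% of all genes tested.

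Small nuclear RNA genes took 0.103% of the TPM in EV replicate 1, 0.325% in sgKAT6A replicate 1, 0.402% in EV replicate 2 and 2.31% in sgKAT6A replicate 2. A list of 14 monocyte maturation genes, chosen after values had been seen, summed to 584 and 1644 TPM in the EV libraries and to 1196 and 2548 TPM in the sgKAT6A libraries. Of those 14, 11 were lowest in EV replicate 1 and highest in sgKAT6A replicate 2, and 10 were above 1 TPM in every library. That order may have been selected, since the list was chosen with the values known. Its share over all genes tested was not computed. A ribosomal RNA symbol, RNA18SN5, was at 10401 and 13751 TPM in EV, 12031 TPM in sgKAT6A replicate 1 and 340 TPM in sgKAT6A replicate 2. The part of these measures in the levels of the 45 genes was not tested.

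**Figure D2:**
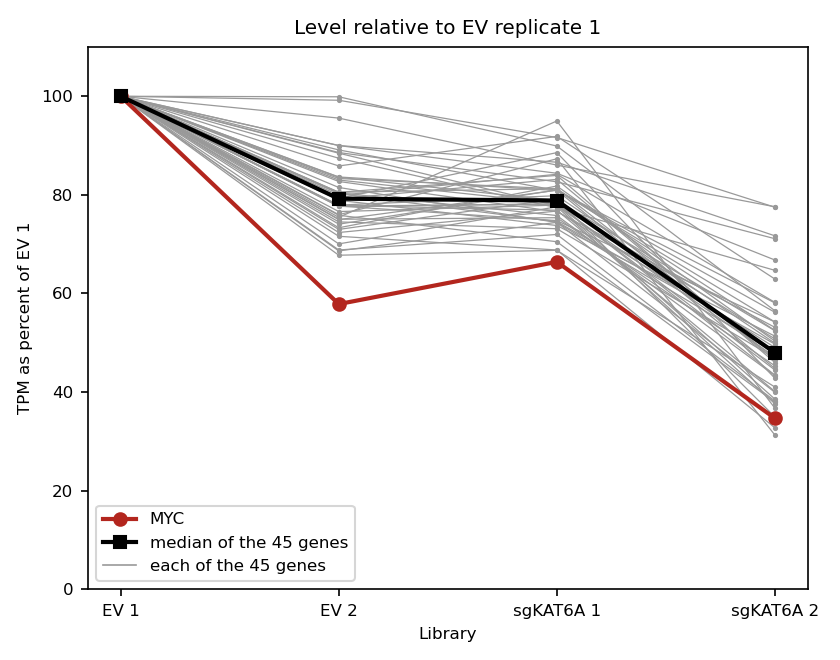
TPM of each of the 45 genes (grey), their median (black) and MYC (red) as a percentage of the EV replicate 1 level (vertical axis), for the 4 libraries (horizontal axis); lines join the values of 1 gene and show no time course. The median is at 79.2% in EV replicate 2, 78.8% in sgKAT6A replicate 1 and 48.0% in sgKAT6A replicate 2.

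The snoRNP genes had a median log2 difference of -0.57, and 4 of the 5 were without overlap, against 23.2% of all genes tested (lower in sgKAT6A). FBL, the methyltransferase fibrillarin of box C/D snoRNPs, was at 495 and 445 TPM in EV against 417 and 330 TPM in sgKAT6A. NOP56, a core scaffold protein of the same particles, was at 271 and 204 TPM in EV against 205 and 123 TPM in sgKAT6A. The FBL groups did not overlap, whereas NOP56 in sgKAT6A replicate 1 was level with EV replicate 2. NOP58, the paired scaffold of NOP56, was at 89.4 and 74.8 TPM in EV against 72.3 and 51.9 TPM in sgKAT6A. DKC1, the pseudouridine synthase dyskerin of box H/ACA snoRNPs, was at 85.9 and 71.3 TPM in EV against 67.2 and 37.3 TPM in sgKAT6A. NOLC1, a snoRNP chaperone known as Nopp140, was at 87.8 and 70.6 TPM in EV against 66.5 and 38.0 TPM in sgKAT6A, almost the values of DKC1. Within the box C/D core the levels did not keep a fixed proportion. The ratio of FBL to NOP56 was 1.82 and 2.19 in EV and 2.04 and 2.69 in sgKAT6A, and that of NOP56 to NOP58 was 3.03 and 2.72 in EV and 2.83 and 2.37 in sgKAT6A. Both ratios took their extremes in EV replicate 1 and sgKAT6A replicate 2.

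Among the nucleolar chaperones and GTPase, NPM1 had the smallest unadjusted p of the 45 genes (0.0532, adjusted p = 0.784 by limma). NPM1, the chaperone nucleophosmin, was the most abundant of the 45 genes in every library, at 1231 and 1077 TPM in EV against 953 and 796 TPM in sgKAT6A. Its log2 difference was -0.40 ± 0.15 (SE, n = 2 per group), with a 95% interval of -0.81 to 0.01. GENCODE 29 names 45 pseudogenes on the NPM1 symbol, so reads of near-identical copies may be counted with it, and the same holds for 7 more of the 45 genes (NOP56, NCL, PES1, NIP7, DDX18, PA2G4 and SRM). NCL, the RNA-binding protein nucleolin, was at 641 and 499 TPM in EV against 512 and 320 TPM in sgKAT6A, with overlap of the groups. NPM3, a smaller relative of NPM1, was at 134 and 102 TPM in EV against 94.7 and 50.9 TPM in sgKAT6A. Its log2 difference of -0.74 ± 0.36 (SE) was the largest of the group, and the ratio of NPM1 to NPM3 was 15.6 in sgKAT6A replicate 2 against 9.17 to 10.6 in the other libraries. GNL3, the GTPase nucleostemin, was at 90.0 and 72.5 TPM in EV against 73.2 and 42.2 TPM in sgKAT6A.

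Genes of RNA polymerase I and its regulators had a median log2 difference of -0.49. In 3 of 5 the groups did not overlap, against 23.2% of all genes tested (lower in sgKAT6A). POLR1A, the largest catalytic subunit, was at 14.2 and 11.2 TPM in EV against 12.5 and 6.06 TPM in sgKAT6A. POLR1B, the other large subunit, was at 21.1 and 17.4 TPM in EV against 16.2 and 11.2 TPM in sgKAT6A. Only POLR1B of these subunits separated the groups, since POLR1A in sgKAT6A replicate 1 was above EV replicate 2. TCOF1, the factor treacle that supports polymerase I at the ribosomal DNA, was at 37.3 and 31.2 TPM in EV against 29.4 and 19.6 TPM in sgKAT6A. DDX21, a helicase that acts in ribosomal RNA transcription and processing, was at 111 and 86.3 TPM in EV against 85.2 and 44.4 TPM in sgKAT6A. MYBBP1A, a nucleolar protein that binds MYB and regulates polymerase I, was at 58.5 and 44.9 TPM in EV against 45.6 and 22.6 TPM in sgKAT6A. Of these 3, MYBBP1A alone overlapped between groups. The log2 differences of DDX21 and MYBBP1A were both -0.66, with SE of 0.37 and 0.39.

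The log2 differences of the 14 small subunit genes ran from -0.67 for BYSL to -0.23 for UTP23, with a median of -0.45. In 8 of the 14 the groups did not overlap, against 23.2% of all genes tested (lower in sgKAT6A). UTP4, a processome protein of the part that first meets the nascent precursor RNA, was at 58.5 and 47.7 TPM in EV against 43.5 and 28.1 TPM in sgKAT6A. NOC4L, a partner of NOP14 in 40S assembly, was at 38.9 and 30.3 TPM in EV against 29.1 and 21.1 TPM in sgKAT6A. UTP18, also of the processome, was at 54.1 and 47.9 TPM in EV against 44.7 and 38.4 TPM in sgKAT6A, and UTP11 was at 32.6 and 31.2 TPM in EV against 28.1 and 25.3 TPM in sgKAT6A. UTP18 and UTP11 belonged to a flatter set, picked out after the values were seen. In UTP11, UTP23, UTP6 and UTP18 the sgKAT6A replicate 2 level was 77.6%, 77.5%, 71.7% and 71.1% of EV replicate 1. At the other end, BYSL, which encodes the 40S maturation factor bystin, was at 34.9% and UTP20 at 36.7%, both with sgKAT6A replicate 1 above EV replicate 2. UTP15, the gene with the lowest level in 3 of the 4 libraries, was at 5.73 TPM in each EV library, 5.15 TPM in sgKAT6A replicate 1 and 3.24 TPM in sgKAT6A replicate 2. The remaining small subunit genes WDR43, IMP4, RCL1, UTP3 and UTP14A lay at 46.0% to 62.9% of EV replicate 1 in sgKAT6A replicate 2. UTP14A has a retrocopy, UTP14C, that was listed at 6.36 to 8.59 TPM, and reads may be split between them.

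The 12 genes of 60S maturation had a median log2 difference of -0.55. In 4 of the 12 the groups did not overlap, against 23.2% of all genes tested (lower in sgKAT6A). These 4 were PA2G4, DDX18, LAS1L and PES1. PA2G4, which encodes the growth-regulating protein EBP1, was at 199 and 160 TPM in EV against 148 and 98.9 TPM in sgKAT6A. DDX18, a nucleolar helicase, was at 52.3 and 46.6 TPM in EV against 42.3 and 29.4 TPM in sgKAT6A. LAS1L, part of the machinery that cuts the spacer from the 60S precursor, was at 53.5 and 42.2 TPM in EV against 39.5 and 27.5 TPM in sgKAT6A. PES1 and BOP1 form the PeBoW complex with WDR12, and their levels stayed close to proportional. PES1 was at 91.1 and 67.9 TPM in EV against 66.6 and 42.7 TPM in sgKAT6A, and the ratio of BOP1 to PES1 was between 2.66 and 2.88 in the 4 libraries. WDR74, which acts in 60S maturation, was at 64.4 and 47.7 TPM in EV against 52.1 and 34.9 TPM in sgKAT6A, with overlap of the groups. In GENCODE 29 the small nuclear RNA gene RNU2-2P lies at the start of WDR74 on the same strand. Reads may be shared between them, which was not tested. NOP2, a methyltransferase of the large ribosomal RNA, was singled out after its values were seen. It was at 51.8 and 39.3 TPM in EV against 45.2 and 16.2 TPM in sgKAT6A, so that sgKAT6A replicate 2 was at 31.3% of EV replicate 1, the lowest such share of the 45 genes, while sgKAT6A replicate 1 was above EV replicate 2. NOP16, MRTO4, NIP7, PPAN and GRWD1 lay between 37.6% and 44.8%. PPAN reads may be shared with the read-through gene PPAN-P2RY11, listed at 13.4 to 17.0 TPM.

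The 5 MYC-driven genes with other roles had a median log2 difference of -0.59. In 2 of the 5 the groups did not overlap, against 23.2% of all genes tested (lower in sgKAT6A). SRM, spermidine synthase of the polyamine pathway, was at 217 and 149 TPM in EV against 161 and 86.6 TPM in sgKAT6A. IPO4, an importin that carries ribosomal proteins and histones into the nucleus, was at 33.8 and 24.2 TPM in EV against 23.2 and 11.1 TPM in sgKAT6A. Its log2 difference of -0.79 ± 0.41 (SE) was the largest of the 45 genes, with a 95% interval of -1.93 to 0.35. PPRC1, a coactivator of the PGC-1 family, was at 20.3 and 17.95 TPM in EV against 15.8 and 9.57 TPM in sgKAT6A. The groups did not overlap in IPO4 and PPRC1, and did in the other 3. PUS1, a pseudouridine synthase acting mainly on transfer RNA, was at 65.9 and 52.6 TPM in EV against 55.4 and 38.3 TPM in sgKAT6A. EXOSC5, a subunit of the RNA exosome, was at 126 and 92.6 TPM in EV against 103 and 63.5 TPM in sgKAT6A.

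**Figure D3:**
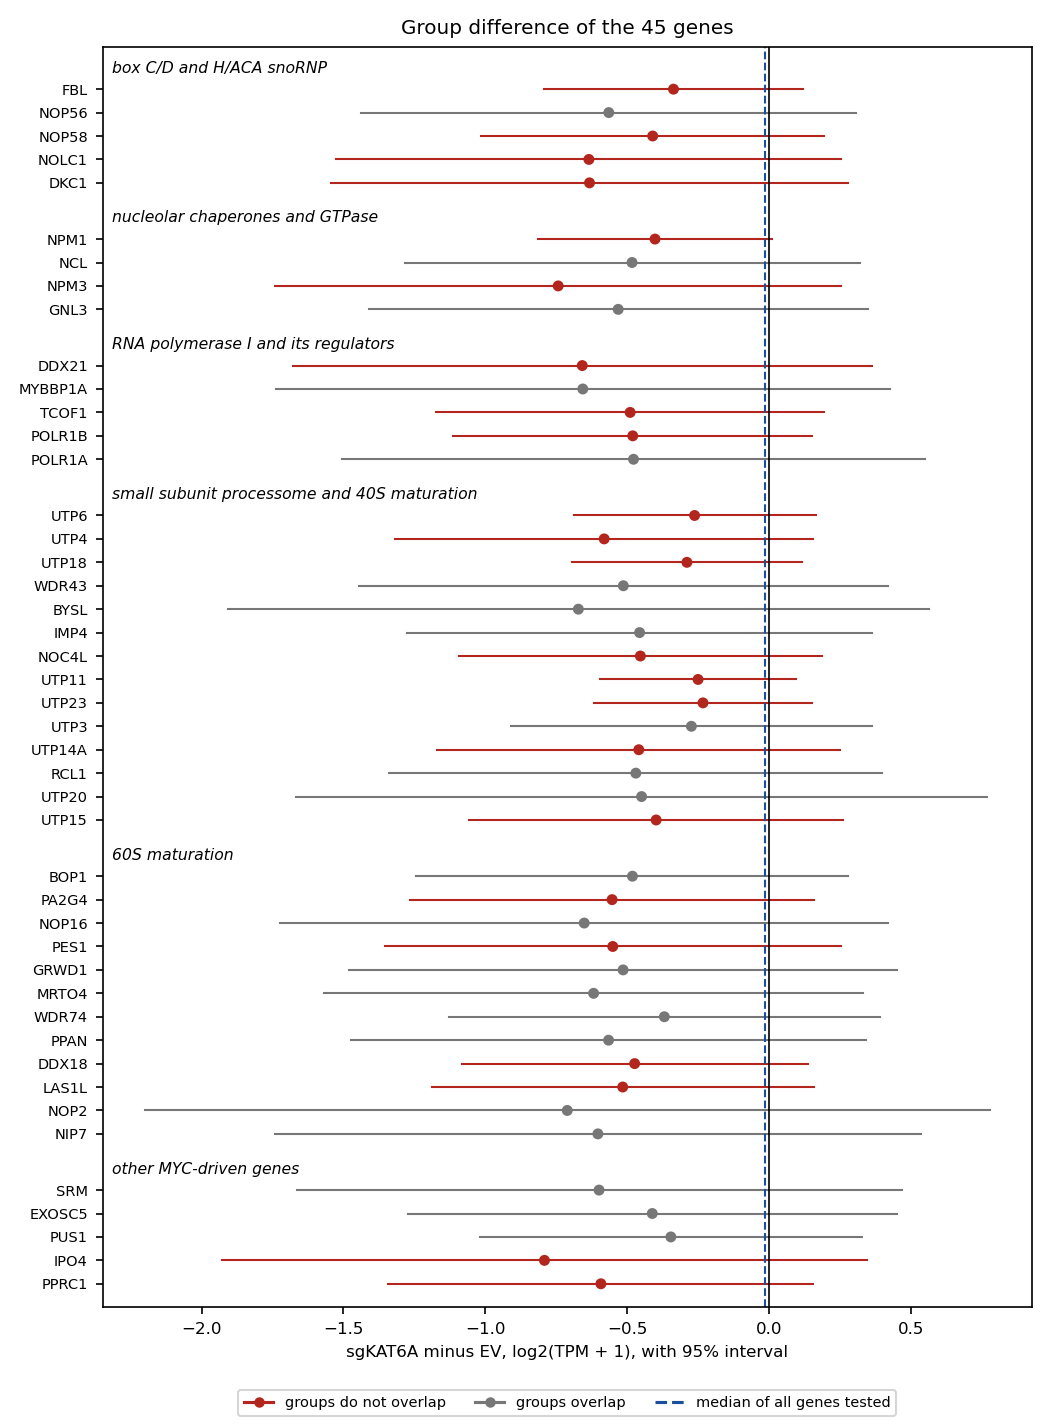
Group difference, sgKAT6A minus EV on the log2(TPM + 1) scale (horizontal axis), of the 45 genes by role, with 95% intervals from limma; red marks genes whose groups do not overlap. All 45 points lie below 0 and all 45 intervals reach past 0.

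Gene level and E-box are set beside the differences here as description only. Across the 45 genes, Spearman's rho between the mean log2 level and the step from EV replicate 1 to sgKAT6A replicate 2 was -0.03, as a description over genes that share the same 4 libraries. The 18 genes with an E-box had a median log2 difference of -0.54, with 7 without overlap. The 20 genes with a window but no E-box had -0.50, with 11 without overlap. Over all genes tested, 23.2% had both sgKAT6A values under both EV values. Any part of level or E-box in the differences was not tested. In chromosomal position the genes were scattered over 18 chromosomes in GENCODE 29.

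MYC itself had the extremes of the 45 genes. It was at 161 and 93.0 TPM in EV against 107 and 55.7 TPM in sgKAT6A, or 57.8%, 66.4% and 34.7% of EV replicate 1 in EV replicate 2, sgKAT6A replicate 1 and sgKAT6A replicate 2. The groups overlapped, and the log2 difference was -0.66 ± 0.44 (SE, adjusted p = 0.784 by limma). Among the other network genes tested MAX, the partner of MYC, alone had the same extremes, at 55.0 and 47.2 TPM in EV against 51.2 and 46.8 TPM in sgKAT6A, and it is named after its values were seen. Of the 12 MYC network genes tested, 3 had a log2 difference below 0, and the median was 0.10. MXD1, which encodes a repressor that competes with MYC for its partner MAX, was at 9.86 and 14.5 TPM in EV against 14.7 and 17.6 TPM in sgKAT6A. MXI1, another such repressor, was at 18.9 and 22.1 TPM in EV against 21.7 and 33.0 TPM in sgKAT6A. MXD1 was the 1 network gene whose sgKAT6A values were both higher than its EV values.

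Ribosome biogenesis genes outside the 45 were read from 4 further lists, also chosen with earlier results known, with 93 genes in all. Their median log2 difference was -0.39, 91 of 93 were below 0, and in 55 the sgKAT6A values lay under both EV values, with 0 the other way round, against 23.2% and 14.4% of all genes tested. Of the 93, 74 were highest in EV replicate 1 and lowest in sgKAT6A replicate 2, against 21.3%. With limma 0 had an adjusted p under 0.05, and 6 had an unadjusted p under 0.05, all lower in sgKAT6A. Of all genes tested, 3.64% had such a p in either direction and 1.98% in the lower direction. The gap between the sgKAT6A libraries was larger than the group difference in 67 of the 93. By list the medians were -0.22 for the other RNA polymerase I genes (7 of 12 without overlap), -0.46 for other snoRNP genes (7 of 12), -0.39 for other small subunit genes (17 of 34) and -0.41 for other 60S genes (24 of 35).

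The genes of these lists with the smallest p-values follow. TEX10, part of a complex that matures the 60S particle, was at 16.9 and 16.2 TPM in EV against 11.5 and 8.83 TPM in sgKAT6A (unadjusted p = 0.0184, adjusted p = 0.784 by limma). DDX24, a nucleolar helicase, was at 57.2 and 55.4 TPM in EV against 43.9 and 40.2 TPM in sgKAT6A. NLE1, a factor of 60S assembly, was at 23.8 and 19.7 TPM in EV against 15.4 and 11.7 TPM in sgKAT6A. In these 3 genes the EV libraries lay closer together than the groups. RIOK2, a kinase of late 40S maturation, was at 13.9 and 13.7 TPM in EV against 11.2 and 9.37 TPM in sgKAT6A. GAR1, a core protein of H/ACA snoRNPs beside dyskerin, was at 71.5 and 49.5 TPM in EV against 45.3 and 29.7 TPM in sgKAT6A. NOP10, of the same core, was flatter, at 283 and 264 TPM in EV against 234 and 214 TPM in sgKAT6A. The EV libraries were closest to each other for RIOK2 and NOP10 among these 3 genes. Among polymerase I genes, RRN3, the initiation factor that makes the polymerase competent to start, was at 25.3 and 23.5 TPM in EV against 21.0 and 16.8 TPM in sgKAT6A. POLR1E, a polymerase I subunit, was at 39.5 and 33.2 TPM in EV against 31.5 and 19.2 TPM in sgKAT6A, and TWISTNB, another, was at 12.3 and 12.05 TPM in EV against 10.5 and 8.13 TPM in sgKAT6A. RUVBL1, an ATPase that helps assemble snoRNPs, was at 73.0 and 62.2 TPM in EV against 53.6 and 30.8 TPM in sgKAT6A. The processome genes MPHOSPH10 and KRR1 were at lower levels, MPHOSPH10 at 26.6 and 23.9 TPM in EV and 21.2 and 16.3 TPM in sgKAT6A, and KRR1 at 11.3 and 12.7 TPM in EV and 9.42 and 7.61 TPM in sgKAT6A. In all of these the groups did not overlap.

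The RRP-named genes and EMG1 stood apart in 1 library. All 8 RRP-named genes were between 0.113 and 2.66 TPM in sgKAT6A replicate 2, where their sum was 8.80 TPM against 233 to 279 TPM in the other libraries. RRP1B was at 29.1 and 24.5 TPM in EV against 22.03 and 0.289 TPM in sgKAT6A, RRP15 was at 3.89 and 3.25 TPM in EV against 2.80 and 0.113 TPM in sgKAT6A, and RRP12 was at 33.0 and 26.3 TPM in EV against 25.7 and 0.665 TPM in sgKAT6A. EMG1, a methyltransferase of the small subunit, was at 69.8 and 55.8 TPM in EV and 55.3 TPM in sgKAT6A replicate 1 but at 2.48 TPM in sgKAT6A replicate 2, and was singled out after its values were seen. Over the 8 genes the median log2 difference was -3.82 for sgKAT6A replicate 2 minus sgKAT6A replicate 1 and -0.01 for sgKAT6A replicate 1 minus EV replicate 2, so their group difference rests on 1 library, and whether that library was filtered before quantification is not known. None of the 45 genes was near such a loss, the lowest share in sgKAT6A replicate 2 being the 31.3% of NOP2. Because the RRP-named genes had been left off the list for that loss, its absence was partly fixed beforehand.

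Genes on which MYC is known to act outside the nucleolus had a median log2 difference of -0.47 over 20 tested, all 20 below 0. In 15 the groups did not overlap, all lower in sgKAT6A (23.2% of all genes tested). Like the 45 genes, 17 of the 20 were highest in EV replicate 1 and lowest in sgKAT6A replicate 2 (21.3% of all genes tested). By limma 0 had an adjusted p under 0.05 and 1 an unadjusted p under 0.05, lower in sgKAT6A. Of all genes tested, 3.64% had such a p in either direction and 1.98% in the lower direction. SHMT2, a mitochondrial enzyme of one-carbon metabolism, was at 116 and 114 TPM in EV against 86.7 and 95.9 TPM in sgKAT6A. Its lowest value was in sgKAT6A replicate 1, unlike the 45 genes. EIF4E, the cap-binding translation factor, was at 10.1 and 9.32 TPM in EV against 7.80 and 6.84 TPM in sgKAT6A. GART, an enzyme of purine synthesis, was at 68.2 and 62.2 TPM in EV against 54.4 and 38.3 TPM in sgKAT6A.

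**Figure D4:**
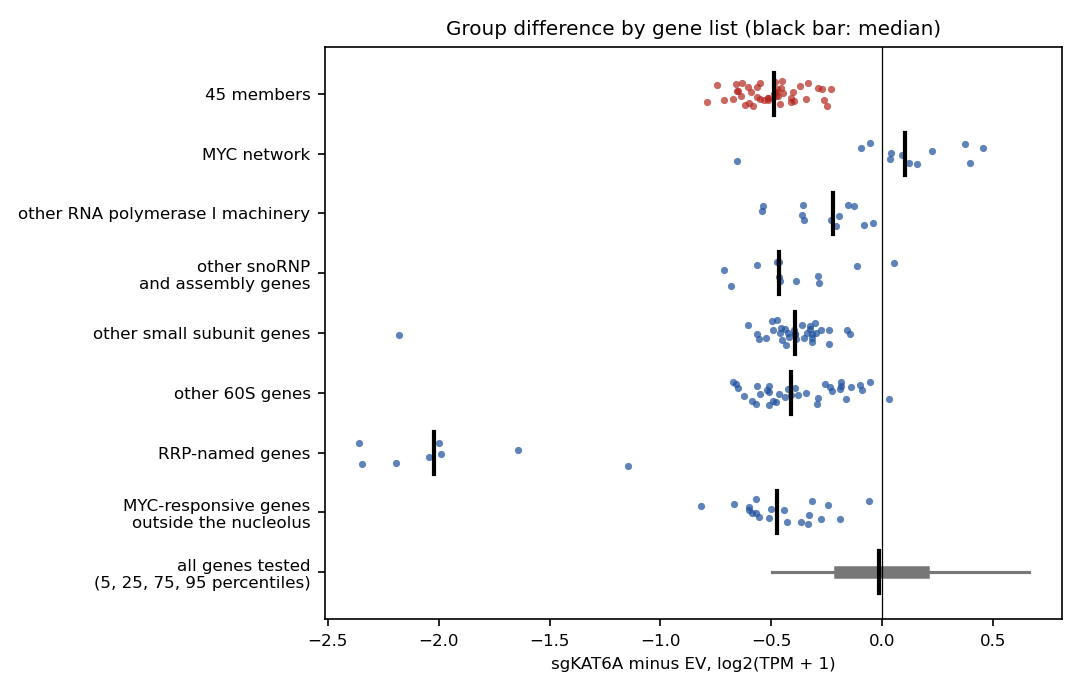
Group difference, sgKAT6A minus EV on the log2(TPM + 1) scale (horizontal axis), for the 45 genes (red), 7 pathway lists (blue, 1 point per gene) and all 12603 genes tested (grey percentiles); black bars are medians. The median is -0.49 for the 45 genes, 0.10 for the MYC network, -2.02 for RRP-named genes, which rests on sgKAT6A replicate 2 alone, and -0.02 for all genes tested.

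Small RNA genes lie in introns of some of the 45 genes. Of 20 snoRNAs listed as nested in NOP56, NOP58, NCL, DKC1, GNL3, WDR43 and PPAN, 3 were at 0 in every library, and 2 of the 16 tested were highest in EV replicate 1 and lowest in sgKAT6A replicate 2, against 21.3% of all genes tested, so the count says nothing particular to them. Both lie in NOP56. SNORD110 was at 151 and 111 TPM in EV against 151 and 71.9 TPM in sgKAT6A, and SNORD57 was at 11.4 and 7.36 TPM in EV against 6.93 and 2.52 TPM in sgKAT6A. SNORA51, also in NOP56, was at 52.0 and 24.7 TPM in EV and 77.4 and 10.7 TPM in sgKAT6A, and SNORD20, in NCL, at 31.2 and 27.2 TPM in EV and 14.4 and 31.3 TPM in sgKAT6A. Both were chosen after their values were seen.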

How the data were processed

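TPM values were estimated by the authors with Salmon against hg38, per the submitters' processing notes, and deposited as a single gene-level table. Version and annotation are not stated in the labels. Sample titles gave the groups. The values were analysed as log2(TPM + 1) where the mean reached 1 TPM. limma 3.58.1 in R 4.3.3 compared the groups over 12603 genes. It used empirical Bayes with a trend, 2 residual degrees of freedom, two-sided p-values, Benjamini-Hochberg adjustment and a threshold of 0.05. The fit was tested on simulated data, and with the spread of these libraries it recovered few of the changes put in. An absence of genes passing the threshold therefore does not show an absence of change. As shares of a library, TPM values depend on each other, and abundant RNAs shift all other values: protein-coding symbols held 81.2% and 81.7% in EV but 77.9% and 78.2% in sgKAT6A. Depth is unknown.

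The members and lists were chosen with earlier results of these data known. Values in every library are given for NPM1, NCL, FBL, NOP56, POLR1A and WDR74, for the 4 members of each role with the smallest unadjusted p (a role of 5 or fewer may be given whole), for up to 3 genes per pathway list in the same order, and for MYC and KAT6A. Genes outside that rule were chosen after their values were seen. Promoter windows came from RefSeq and pseudogene names from GENCODE 29. Alternatives covered the pseudocount, the filter, scaling, composition, the variance model, each library and the replicate number. matplotlib 3.10.9 drew the figures.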

Additional observations from a re-analysis of the deposited data

How the results depend on the processing

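The median log2 difference of the 45 genes stayed below 0 under every alternative run, and with 1 library left out it lay between -0.85 (sgKAT6A replicate 1 omitted) and -0.17 (sgKAT6A replicate 2 omitted). Over the pseudocounts, filters, scalings, compositions and variance model it ran from -0.54 to -0.43, and the median of all genes tested stayed between -0.05 and 0.04. No member passed the adjusted threshold under any alternative. The count of members whose sgKAT6A values all lay under the EV values was 12 with quantile normalization (19.4% of all genes tested), 16 with median-of-ratios scaling (18.02%) and 16 without small RNA and ribosomal RNA symbols (15.6%), beside 23 (23.2%) in the values as reported. With 1 library left out it was between 23 and 45 (33.3% to 44.2% of all genes), numbers that the shared order of the 4 libraries already fixes. The causes of the shifts with scaling were not tested. The labels give both groups the replicate numbers 1 and 2 without saying that a number marks a shared culture or day. Deviations of EV replicate 1 and sgKAT6A replicate 1 from their group means correlated across genes (r = 0.45). With 2 libraries per group the replicate 2 deviations mirror these, so they add no further evidence. The sign of r depends on how the libraries were numbered. With the replicate number as a block, 15 of all genes tested and 0 members had an adjusted p under 0.05 by limma, and 38 members had an unadjusted p under 0.05, against 19.2% of all genes tested. UTP15, with a mean under 5 TPM, was not tested under the stricter filter. TPM gives no depth, so the precision of the low genes could not be computed.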
